A study of Homo sapiens with 20 samples.

Results

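The neuregulin and EGF receptor family was followed here through 10 genes, 6 ligands (NRG1, NRG2, NRG3, NRG4, HBEGF and BTC) and the 4 receptors they act on (EGFR, ERBB2, ERBB3 and ERBB4). The genes were chosen by name, as the coding records of the deposited catalogue that carry these symbols, and each symbol had 1 such record, none of them merged with another gene, among 20237 coding records and 38369 records in all. The cells were neural progenitors derived from the established human line H1, an embryonic stem cell line, so that every culture comes from a single genetic background. At day 0 they were progenitors that had grown with FGF in a mixed base medium. From then on FGF was withdrawn and BDNF, a neurotrophin, was supplied in Neurobasal medium alone with B27. RNA was taken on days 1, 2, 4, 5, 11 and 18. The base medium and its supplements thus changed together with FGF and BDNF, and these cannot be told apart. Of 20 cultures in all, 3 were sequenced on each of 6 days and 2 on day 5, and the cultures of days 5, 11 and 18 had been moved at day 4 from Matrigel onto poly-D-lysine and laminin. The step from day 4 to day 5 therefore crosses the replating itself, with reseeding at a set density, and the change of surface, as well as 1 day of time. These cannot be told apart.

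The ErbB receptors are receptor tyrosine kinases that signal as pairs. EGFR binds ligands such as HBEGF and BTC, ERBB3 and ERBB4 bind neuregulins, ERBB2 has no known ligand of its own and serves as the preferred partner of the others, and ERBB3 has a kinase domain with little activity and depends on its partners. In the nervous system, EGFR is known from progenitors and glia, ERBB3 from neural crest and Schwann cells, ERBB4 from neurons and migrating cells, and NRG1 and NRG3 as ligands that neurons make.

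The values are FPKM, which scales the fragments of a gene to its transcript length and to the size of the library, with 1 value for each gene and day estimated from all cultures of that day together. No spread between cultures can be given for any value below, no comparison was tested, and the read depth behind the values is unknown, so differences are described by their size only. The sum of all FPKM values was between 251156 and 413978 per day, and the level of the typical gene drifted: in the 11793 coding records whose mean FPKM reached 1, called expressed below, day 18 was lower than day 0 by a median log2 change of -0.60, computed on FPKM + 0.1. Changes are therefore given as deposited and relative to this median, and a gene was counted as changed when its relative change was at least 2-fold. In whole cultures, fewer cells of a type and less RNA per cell cannot be told apart.

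Promoter sequence is shown for the genes at either end of the family's range of change, NRG3 and EGFR, because the remaining results are about how far these transcripts moved apart. Both windows come from RefSeq on GRCh38.p14, run 5′ to 3′ on the strand of the gene and hold 300 bases around the most upstream listed start. Capitals mark the GC box GGGCGG or its reverse complement CCGCCC. The NRG3 window is chr10:81874944-81875243 on the plus strand and the EGFR window chr7:55018767-55019066 on the plus strand.
NRG3: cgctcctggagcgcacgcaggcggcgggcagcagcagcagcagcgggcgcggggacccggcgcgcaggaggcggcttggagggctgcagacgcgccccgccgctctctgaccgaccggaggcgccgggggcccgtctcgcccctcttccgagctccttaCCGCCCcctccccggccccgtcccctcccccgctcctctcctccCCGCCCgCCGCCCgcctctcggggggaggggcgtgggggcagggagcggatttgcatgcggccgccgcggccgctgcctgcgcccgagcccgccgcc
EGFR: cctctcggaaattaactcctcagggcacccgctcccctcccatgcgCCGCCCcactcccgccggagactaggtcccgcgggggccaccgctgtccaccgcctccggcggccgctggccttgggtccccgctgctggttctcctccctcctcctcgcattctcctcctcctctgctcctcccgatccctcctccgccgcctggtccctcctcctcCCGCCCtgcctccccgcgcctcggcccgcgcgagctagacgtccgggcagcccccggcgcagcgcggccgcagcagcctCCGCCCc

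Each of these windows held 3 GC boxes. The window of HBEGF held 5, that of ERBB4 held 1 and that of ERBB2 held 0, and 45.0% of the 35116 promoter windows of the same length held at least 1 on either strand. Their GC content was 81.0% for NRG3, 75.3% for EGFR, 75.0% for HBEGF, 60.7% for ERBB2 and 59.0% for ERBB4, against a median of 58.7% over all windows. None of these 5 windows held the letters TATAAA (11.5% of all windows, either strand) or CAGCTG (17.9%), and ERBB2 alone held TGANTCA, at 1 place (7.71% of all windows). A missing motif says only that these letters are not in this stretch. Of the 10 genes, 8 had a window in the table.

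Over the whole course the leading transcript among the 6 ligands changed. HBEGF was the most abundant of them at day 0 and NRG1 from day 4 onwards, with NRG3 second on days 11 and 18. This order leaves out EGF, which is not among the 6 and was above both HBEGF and NRG1 on days 1 to 5. Among the receptors ERBB2 led on every day, while ERBB4 was higher and EGFR lower at day 18 than at day 0. Of the 10 genes, 6 were expressed (NRG1, NRG3, HBEGF, EGFR, ERBB2 and ERBB4), and NRG2, NRG4, BTC and ERBB3 did not and were not counted. Relative to the median, 3 of the 6 were at least 2-fold higher at day 18 (NRG3, NRG1 and ERBB4), where 14.7% of the expressed coding records were, and 1 of the 6 was at least 2-fold lower (EGFR), where 12.1% were. As deposited, 2 of the 6 were higher (NRG3 and NRG1; background 7.57%) and 2 lower (EGFR and HBEGF; background 29.9%). The calls of ERBB4 and HBEGF thus depended on the scaling of the days, whereas those of NRG1, NRG3 and EGFR did not.

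**Figure D1:**
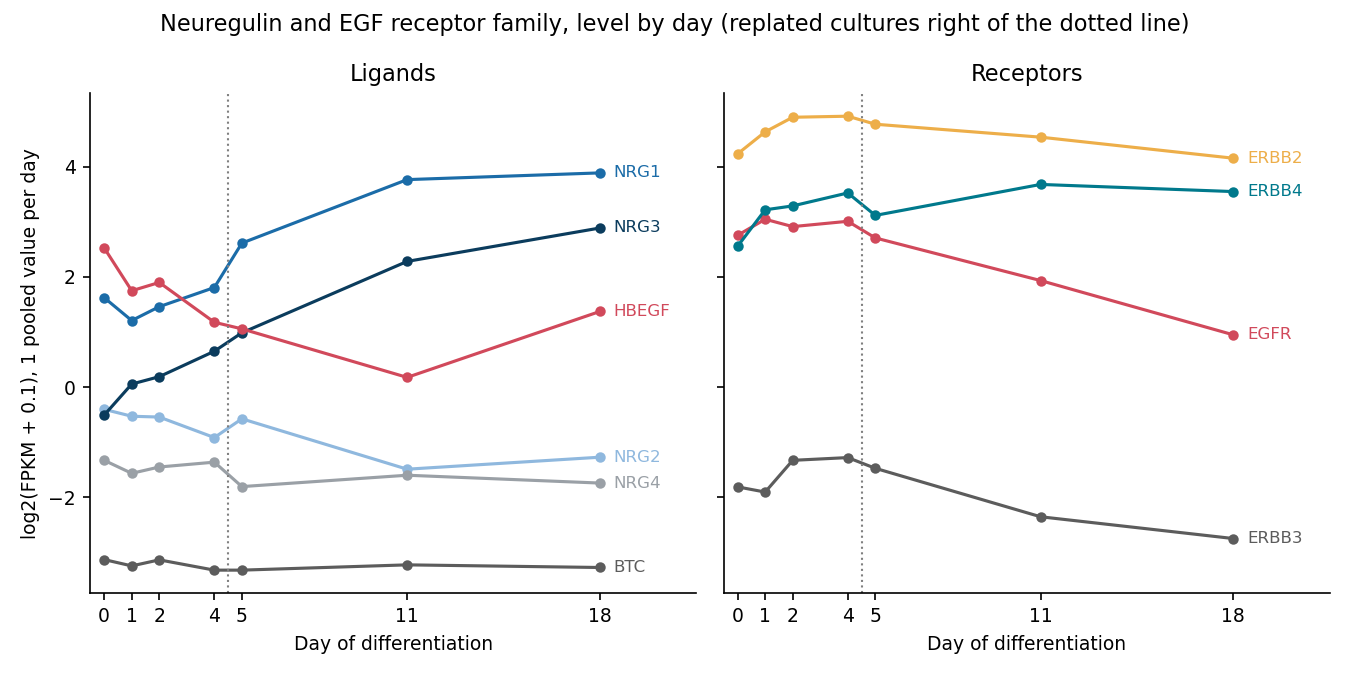
Level of each gene as log2(FPKM + 0.1) (y axis) against the day of differentiation (x axis), ligands on the left and receptors on the right, with 1 pooled value per day and no error bars because no replicate values were available. NRG1 and NRG3 end at 14.7 and 7.30 FPKM above HBEGF at 2.49, and EGFR ends at 1.83 below ERBB4 at 11.6.

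NRG1 encodes neuregulin-1, a ligand of ERBB3 and ERBB4 made in many membrane-bound and secreted forms, and its record (hg19 chromosome 8, 31497268 to 32622558, plus strand) combined 23 transcript isoforms. Its FPKM was 2.98 on day 0, 2.21 on day 1, 2.65 on day 2, 3.40 on day 4, 6.02 on day 5, 13.5 on day 11 and 14.7 on day 18. The level was thus lowest 1 day after the change of medium and factors, was back above its starting value at day 4, and was highest on the last 2 days sampled. From day 0 to day 18 the ratio was 4.95, a log2 change of 2.27 as deposited, or 2.87 beyond the median, which placed it 311th from the top among 11793 expressed coding records. Because values are summed over isoforms, they do not say which forms of neuregulin-1 were made.

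NRG3 encodes a neuregulin that binds ERBB4, and its record (chromosome 10, 83635070 to 84746935, plus strand) held 5 isoforms. FPKM of NRG3 was 0.603 on day 0, 0.939 on day 1, 1.04 on day 2, 1.47 on day 4, 1.88 on day 5, 4.76 on day 11 and 7.30 on day 18. Each day was higher than the one before, and the whole-course ratio of 12.1 was the widest of the 6 expressed genes. As deposited its log2 change was 3.39 and relative to the median 3.99, 129th from the top. The FPKM ratio of NRG1 to NRG3 was 4.93 on day 0, between 2.31 and 3.20 on days 1 to 11 and 2.02 on day 18, so that NRG1 remained the more abundant of the pair throughout.

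HBEGF, a membrane-anchored ligand of EGFR and ERBB4 (chromosome 5, 139712429 to 139726188, minus strand), had an FPKM of 5.66 on day 0, 3.26 on day 1, 3.63 on day 2, 2.16 on day 4, 1.98 on day 5, 1.03 on day 11 and 2.49 on day 18. It was lowest at day 11, 5.49 times under its day 0 value, and was higher again at day 18. The ratio of day 18 to day 11 was 2.42, with log2 changes of 1.20 (as deposited) and 1.47 (relative), 55th from the top of the expressed coding records at that step. No replicate value is available to set beside this late difference. Over the whole course HBEGF changed by -1.15 on the log2 scale as deposited but by -0.55 relative to the median.

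The other 3 ligands were low. NRG2, a neuregulin that binds ERBB3 and ERBB4 (chromosome 5, 139227260 to 139422879, minus strand), went from 0.656 FPKM on day 0 to 0.593 on day 1, 0.586 on day 2, 0.430 on day 4, 0.571 on day 5, 0.256 on day 11 and 0.314 on day 18. NRG2 and NRG3 were close at day 0, with an NRG3 to NRG2 ratio of 0.920, and that ratio was 23.2 on day 18. NRG4, a ligand of ERBB4 (chromosome 15, 76235385 to 76352069, minus strand), stayed between 0.186 and 0.298 FPKM. BTC, betacellulin, a ligand of EGFR and ERBB4 (chromosome 4, 75671448 to 75719882, minus strand), was at most 0.0142 FPKM and was listed at 0 on days 4 and 5, and its record carried the flag for too few fragments to test at all 6 steps in the authors' quantification. No fold is given for BTC.

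ERBB2, the coreceptor without a known ligand (chromosome 17, 37844393 to 37884914, plus strand), had the highest level of the family on all 7 days. Its FPKM was 18.7 on day 0, 24.7 on day 1, 29.7 on day 2, 30.1 on day 4, 27.2 on day 5, 23.1 on day 11 and 17.7 on day 18. The level was highest in the middle of the course and nearly the same at both ends, with a ratio of highest to lowest of 1.70, the narrowest of the 6 expressed genes. Between the ends its log2 change was -0.08 as deposited but 0.52 after recentring on the median, so its direction depended on the scaling.

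ERBB4, the receptor that both binds neuregulins and has an active kinase (chromosome 2, 212240442 to 213403352, minus strand), had 5.78 FPKM on day 0, 9.20 on day 1, 9.67 on day 2, 11.4 on day 4, 8.57 on day 5, 12.7 on day 11 and 11.6 on day 18. Its widest single step was the first day after the change of medium and factors, with a ratio of 1.59, and a dip at day 5 followed replating. The ratio of day 18 to day 0 was 2.00, a log2 change of 0.99 as deposited, just inside the 2-fold limit, but 1.59 relative to the median. EGFR, the receptor of HBEGF and other EGF-type ligands (chromosome 7, 55086725 to 55275030, plus strand), had 6.65 FPKM on day 0, 8.16 on day 1, 7.43 on day 2, 7.95 on day 4, 6.43 on day 5, 3.72 on day 11 and 1.83 on day 18. It was thus level until day 5 and lower on each of the last 2 days, where ERBB4 was at its highest. Over the whole course EGFR changed on the log2 scale by -1.81 as deposited and by -1.21 after recentring, 1044th from the bottom of 11793 records. With a pseudocount of 1 in place of 0.1 the relative change of EGFR was -0.91, inside the 2-fold limit.

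ERBB3, the neuregulin receptor with an impaired kinase (chromosome 12, 56473892 to 56497127, plus strand), was near the bottom of the measured range. Its FPKM was 0.185 on day 0, 0.167 on day 1, 0.298 on day 2, 0.312 on day 4, 0.260 on day 5, 0.0957 on day 11 and 0.0488 on day 18, and 3 of its 6 steps carried the flag for too few fragments. SOX10, a defining transcription factor of neural crest and Schwann cell precursors, in which ERBB3 is abundant, was also at most 0.165 FPKM. At these levels and an unknown depth, no order is read from the days of ERBB3.

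**Figure D2:**
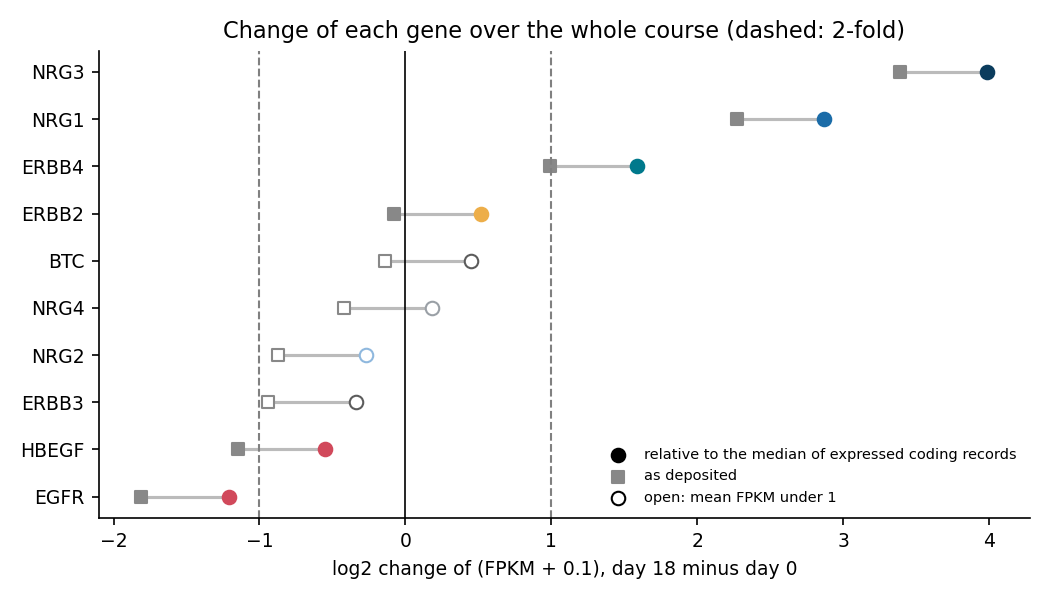
Change of each gene from day 0 to day 18 in log2(FPKM + 0.1) (x axis), with circles relative to the median of expressed coding records, grey squares as deposited, open symbols for genes with a mean FPKM under 1 and dashed lines at 2-fold. NRG3 (3.99 relative, 3.39 as deposited) and NRG1 (2.87 and 2.27) lie right of the upper line on both scales and EGFR (-1.21 and -1.81) left of the lower one, whereas ERBB4 and HBEGF cross a line between scales.

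The question of when the family changed was addressed step by step, over unequal intervals. From day 0 to day 1 none of the 6 expressed genes was 2-fold changed relative to the median, where 6.76% of the expressed coding records were. The same count of 0 was found between days 1 and 2 (0.271% of the expressed coding records), days 2 and 4 (0.780%) and days 4 and 5 (0.416%). From day 5 to day 11, 2 of the 6 were changed, NRG3 with a relative log2 change of 1.46 and NRG1 with 1.31, where 5.72% of the coding records were. From day 11 to day 18, HBEGF was the 1 gene changed, where 3.24% were. Across replating, from day 4 to day 5, NRG1 had a ratio of 1.77 and a relative log2 change of 0.88, which did not pass the limit but was 89th from the top. At that same step ERBB4 had a ratio of 0.752, 481st from the bottom. Whether reseeding, the new surface or the added day accounts for either was not tested.

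Shares within a day do not depend on how the days were scaled against each other. Summed over the 6 ligands, FPKM was 10.2 on day 0, 7.24 on day 1 and 25.1 on day 18. HBEGF made up 55.4% of this sum at day 0, 45.0% on day 1, 44.3% on day 2, 27.9% on day 4, 18.6% on day 5, 5.23% on day 11 and 9.95% on day 18. NRG1 and NRG3 together made up 35.1%, 43.5%, 45.1%, 62.8%, 74.3%, 92.3% and 88.0% on the same days. HBEGF was thus the majority of the sum of these 6 ligands at day 0 and the pair of neuregulins from day 4 on. The sum does not include EGF, which had 9.24 FPKM on day 4, where the 6 ligands summed to 7.74. The 4 receptors summed to 31.4 FPKM on day 0, 49.8 on day 4 and 31.1 on day 18. In that sum ERBB2 held between 56.9% and 64.1% on every day, EGFR went from 21.2% on day 0 to 15.1% on day 5 and 5.88% on day 18, and ERBB4 from 18.4% to 20.2% and 37.1%. The FPKM ratio of ERBB4 to EGFR was 0.869 on day 0, between 1.13 and 1.43 on days 1 to 5, 3.41 on day 11 and 6.32 on day 18. That of NRG1 to HBEGF was 0.526 on day 0, 1.57 on day 4, 13.0 on day 11 and 5.92 on day 18.

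**Figure D3:**
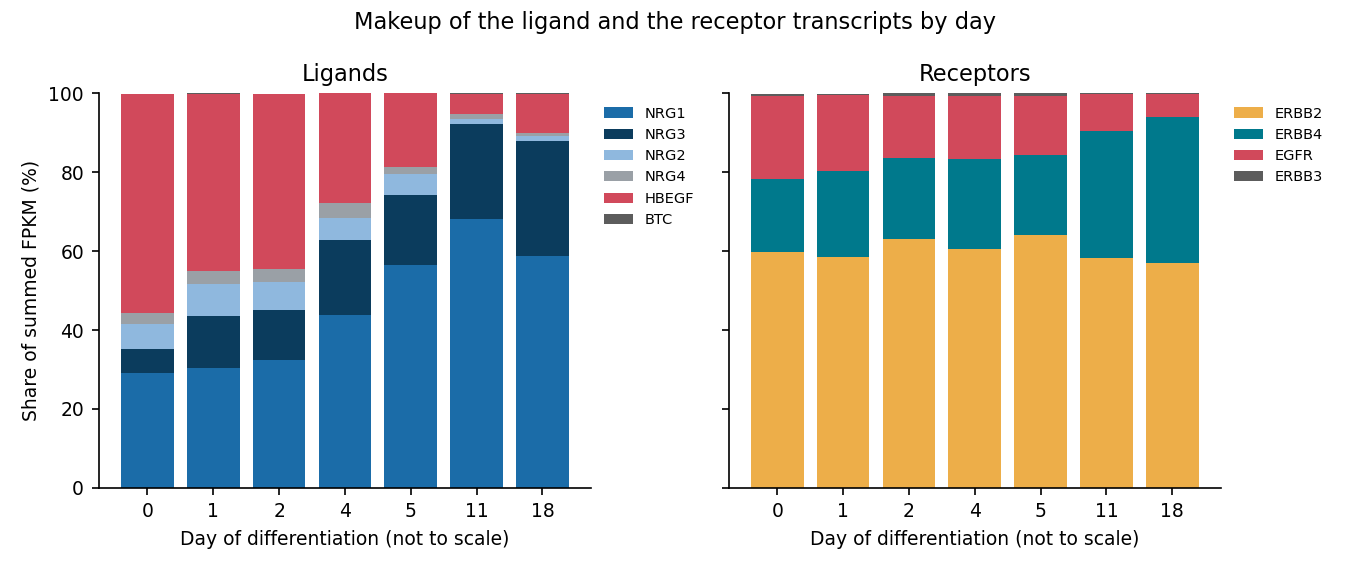
Share of the summed FPKM in percent (y axis) by day (x axis, not to scale), for the 6 ligands on the left and the 4 receptors on the right, each bar adding to 100. NRG1 and NRG3 grow from 35.1% to 88.0% of the ligand sum and ERBB4 from 18.4% to 37.1% of the receptor sum, while ERBB2 stays between 56.9% and 64.1%.

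The catalogue also held 14 lincRNA records named after 6 of the 10 genes, and 2 of them had a mean FPKM above 1. One, linc-EGFR-AS (chromosome 7, 55271702 to 55285090), lies opposite the 3′ end of EGFR and shares 2082 of its 13309 exon bases (15.6%) with EGFR exons on the other strand. Its FPKM was 2.66 on day 0, 3.14 on day 1, 2.91 on day 2, 3.12 on day 4, 2.56 on day 5, 1.45 on day 11 and 0.746 on day 18. The ratio of this record to EGFR stayed between 0.385 and 0.408 on all 7 days, although EGFR itself differed 4.46 times between its highest and lowest day. The library kit and the default options named in the study's methods do not separate strands, so reads of the antisense record and of EGFR cannot be told apart where they overlap. The other, linc-EGFR-2 (chromosome 7, 55001421 to 55006861), lies on the strand of EGFR 79864 bases before its first exon, shares no exon base with it and carries the authors' pseudogene flag. It had 3.23 FPKM on day 0, 5.16 on day 4 and 3.57 on day 18, and its ratio to EGFR went from 0.486 on day 0 to 1.95 on day 18. The other 12 records had a mean below 1. Among them, linc-NRG3-AS, opposite the start of NRG3 with 9.22% of its exon bases in NRG3 exons, went from 0.0139 to 0.146 FPKM and kept a ratio to NRG3 between 0.0179 and 0.0249, and its values carry the same strand limit.

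The rest of the pathway was described from 6 gene lists, 65 of whose symbols had a record and 56 were expressed. Between days 0 and 18, relative to the median, 3 of the 56 were at least 2-fold higher (14.7% of all expressed coding records) and 7 lower (12.1%), and the median of the 56 was 0.05, where the median of all expressed coding records is 0 by construction. As deposited, 1 was higher (background 7.57%) and 12 lower (29.9%). The list that holds the proteases and cofactors which shed or mature the ligands had 4 of 8 expressed genes lower, against the same background of 12.1%, and 0 higher, with a median of -0.97. As deposited, 5 of the 8 were lower, against 29.9%. These were ADAM12 (13.9 FPKM on day 0, 2.39 on day 18), ADAM19 (8.27 and 1.83), ADAM9 (68.1 and 20.6) and FURIN (7.43 and 2.20), which belong to the metalloprotease and proprotein convertase families. ADAM10 and ADAM17, the principal sheddases of ErbB ligands, had relative log2 changes of -0.38 and 0.03, and BACE1, which cleaves NRG1 in neurons, had 0.95, with 10.8 FPKM on day 0 and 13.9 on day 18. FURIN, RHBDF1, ADAM10, ADAM17 and BACE1, and SHC3 and LRIG1 below, were named after their values were seen.

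Among the 14 expressed adaptors and proximal effectors, 1 was higher and 1 lower, with a median of 0.03, and both were Shc adaptors, which link phosphorylated receptors to RAS. SHC1 had 91.8 FPKM on day 0, 73.8 on day 5, 24.8 on day 11 and 13.5 on day 18, and SHC2, a form known from neurons, had 0.847, 6.54, 6.95 and 8.73. SHC3, also known from neurons, went from 15.2 to 9.85, a relative change of -0.02. Of the 11 expressed genes of the RAS-ERK arm, 1 was lower, the kinase MAP2K1 (51.5 FPKM on day 0, 23.1 on day 1 and 10.4 on day 18), and 1 was at the limit, BRAF (3.13 and 4.20, relative change 1.01 and 0.41 as deposited), with a median of -0.01. Of the 9 expressed genes of the PI3K-AKT arm, 1 was higher, the regulatory subunit PIK3R3 (28.5 and 44.8 FPKM, 1.25 relative and 0.65 as deposited), with a median of 0.51. Of the 13 expressed genes listed under receptor inhibitors and degradation, 1 was lower, LRIG3 (5.55 and 0.654), with a median of 0.21. That list groups genes by topic and does not give the direction in which each acts on the receptors. LRIG1, which promotes degradation of ErbB receptors, had 38.8 and 49.7, a relative change of 0.96. The counts and medians of these lists are on the relative scale. As deposited, 1 adaptor or effector was higher and 3 lower (median -0.57), and in the RAS-ERK arm 0 and 2 (-0.61). In the PI3K-AKT arm 0 were higher and 1 lower (-0.08), and under receptor inhibitors and degradation 0 and 1 (-0.39). The median of all expressed coding records as deposited was -0.60. Of the other 5 EGF-type ligands, EGF alone was expressed at a mean of at least 1, and it was singled out after its values were seen: it had 1.94 FPKM on day 0, 5.95 on day 1, 9.24 on day 4, 6.63 on day 5 and 2.29 on day 18. EGF was thus highest in the middle days, and it was above HBEGF on days 1 to 11 and above NRG1 on days 1 to 5. TGFA was at most 0.267, EPGN at most 0.460, AREG at most 0.0231 and EREG at most 0.00801.

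**Figure D4:**
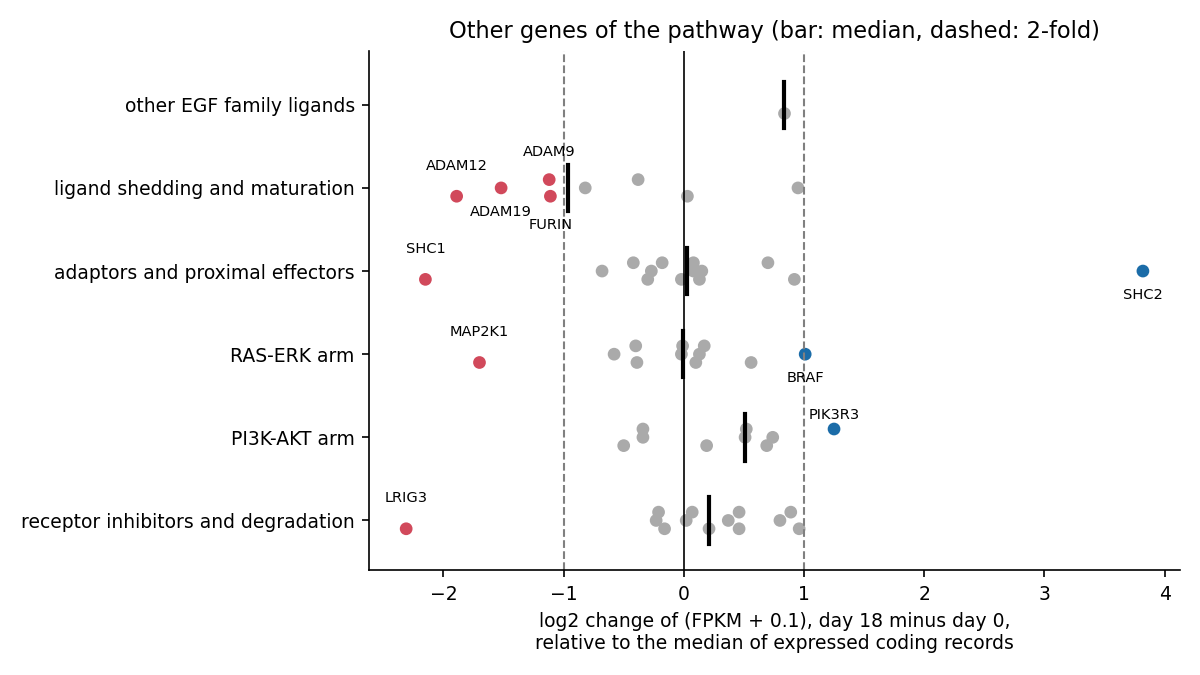
Change from day 0 to day 18 in log2(FPKM + 0.1) relative to the median of expressed coding records (x axis) for the 56 expressed pathway genes in 6 lists (y axis), each point 1 gene, with the list median as a bar and 2-fold as dashed lines. The genes past 2-fold are named, with SHC2 farthest to the right and LRIG3 farthest to the left, and 46 of the 56 lie between the lines.

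Markers of the cell types that such cultures can hold moved over the same days, and their part in the changes of the family was not tested. The counts that follow are relative to the median, against 14.7% of all expressed coding records higher and 12.1% lower, with calls as deposited (background 7.57% and 29.9%) given where they differ. Of 10 neuronal markers, 7 were at least 2-fold higher at day 18 and 0 lower (as deposited 1 lower, NEFL), and their summed FPKM was 605 on day 0, lowest on day 1 with 330 and highest on day 18 with 1379. All 8 markers of dividing cells were lower, with sums of 574 on day 0 and 103 on day 18. Of 10 progenitor markers, all expressed, 3 were higher and 1 lower (as deposited 2 and 2), with sums of 3903 on day 0, 4786 on day 2 and 2086 on day 18. VIM alone made up 2948, 3914 and 1493 FPKM of these sums, and the median relative change of the 10 was 0.08. Of 10 mesenchymal markers 6 were expressed and 4 of these lower (as deposited 5), with sums of 660 on day 0 and 57.3 on day 18. COL1A1 was listed at 0 on every day with the flag for too few fragments, while the other collagen genes COL1A2 and COL3A1 had 33.6 and 238 FPKM on day 0, so that this 0 may be a failed estimate and is not read as absence. Of 10 markers of neural crest and Schwann cell precursors 7 were expressed, 4 of them higher and 1 lower (as deposited 2 lower), with sums of 83.2 on day 0, 173 on day 11 and 122 on day 18, but the defining factors SOX10 and FOXD3 were at most 0.165 and 0.0873. Of 10 glial markers 4 were expressed and 2 of these higher, SLC1A3 and SLC1A2 (as deposited also 1 lower), with sums of 54.3 on day 0 and 102 on day 18. The PDGFRA record, 1 of these 4 with 27.3 FPKM on day 0, is merged with another gene and cannot be assigned to it, and GFAP was at most 0.186 and OLIG2 at most 0.130. Of 10 interneuron markers 2 were expressed and both higher, SST and CALB2, with sums of 1.80 on day 0 and 22.1 on day 18, while GAD1 was at most 0.266 and DLX1 at most 0.252. Of 8 epithelial markers the KRT19 record, which is merged with JUP and cannot be assigned to it, was the 1 expressed and was higher (as deposited 0 were), with sums of 14.8 on day 0 and 20.3 on day 18 and EPCAM at most 0.816. Of 7 pluripotency symbols 6 had a record, 2 were expressed and 1 of these lower (as deposited both), with sums of 29.9 on day 0 and 9.19 on day 18 and POU5F1 at most 0.108.

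Genes with the course most like that of each expressed member were ranked by Pearson's r of log2(FPKM + 0.1) over the 7 days, among 11248 expressed coding records with a single symbol. These r values describe 7 pooled points that share the same libraries and the drift of the median, and many records reach a high r. For NRG1 the leading records were NNAT (r = 0.999), HERC1 (0.997) and EBF1 (0.996), with 244 records at 0.95 or above. For NRG3 they were NAPB, TM2D3 and GPM6A (each 0.998), with 375 such records. For EGFR they were PREX2 (0.997), NOD1 (0.997) and C9orf85 (0.996), with 1021. For ERBB2 they were PRR14 (0.995), RPL28 (0.990) and POLR2H (0.989), with 117. The courses of HBEGF and ERBB4 were shared by fewer records, 18 and 14 at 0.95 or above. HBEGF was most like JMJD6 (0.995), NEDD9 (0.994) and SPRY4 (0.984), and SPRY4, an inhibitor of receptor tyrosine kinase signalling, had 28.4 FPKM on day 0, 13.9 on day 1, 4.69 on day 11 and 9.48 on day 18. ERBB4 was most like ZNF548 (0.990), CNNM4 (0.988) and PAX7 (0.972), and PAX7 had 0.697 FPKM on day 0, 1.65 on day 1, 1.42 on day 5 and 2.55 on day 18. SPRY4 and PAX7 were the lowest ranked of the records named for HBEGF and ERBB4. They were singled out after the ranking was seen, and no link to either gene was tested. Likeness of course says nothing of size: TM2D3 went only from 15.3 to 21.1 FPKM while NRG3 differed 12.1 times.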

How the data were processed

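RNA from 20 H1-derived cultures over 7 days was prepared with the TruSeq kit and sequenced as paired ends. According to the methods and the submitters' processing notes, the authors aligned reads to hg19 with TopHat2, assembled them with Cufflinks and estimated FPKM with Cuffdiff2 at default options; versions are not given in the sources used here. The deposited FPKM values hold 1 estimate per record and day over the cultures of that day, and 0 columns hold single samples, so the planned tests could not be run. The authors' table of adjacent days also holds fold changes, test statistics, p-values and q-values of their own comparisons, which were not used. Its FPKM values differed from the deposited matrix by more than 1e-05 of the value for 4 records, 0 of them members. Its text flags were read as status only. ERBIN and LIN28A had no record under these names.

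Per symbol, the coding record with the highest mean FPKM was used. Changes were computed in log2(FPKM + 0.1) and recentred on the median of those coding records whose mean FPKM was 1 or more. A call needs a 2-fold relative change and that mean. Named pathway genes were those past 2-fold (at most the 3 largest per direction and list), and likeness was the 3 highest Pearson r. Alternatives were no recentring, pseudocounts of 1 and 0.01, filters of 0.1 or none, a 1.5-fold limit and summed records. The code for the recentring and the calls was checked on simulated data with changes set well beyond 2-fold. That check does not show how reliable calls are near the limit or at low FPKM. The members and lists were chosen with earlier results of these data known. Python 3.11.15, pandas 2.3.3, numpy 2.4.6 and matplotlib 3.10.9 were used, with GENCODE models on GRCh37 for overlaps of lincRNA records.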

Additional observations from a re-analysis of the deposited data

How the results depend on the processing

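No paired analysis was possible because the deposited columns hold 1 pooled value per day and carry no replicate number, and no replicate could be left out for the same reason. Of the 10 genes, 6 were expressed, and 4 of these were past 2-fold from day 0 to day 18. Of the expressed coding records, 14.7% were past it upwards and 12.1% downwards. The count of 4 was 3 with a pseudocount of 1, where the relative change of EGFR was -0.91, and 4 under the other alternatives. Without recentring, the same count of 4 was reached with HBEGF (-1.15) in place of ERBB4 (0.99). Over the 6 adjacent steps of the 6 expressed genes 3 changes were past 2-fold, against 13 with a limit of 1.5-fold. Per step, between 0.271% and 6.76% of the expressed coding records were past 2-fold. For the coding records from day 0 to day 18 the count was 3160 of 11793 expressed, against 5532 of these at 1.5-fold. Without a filter it was 4971 of 20237. For the pathway genes it was 10 of 56 expressed, against 21 of these at 1.5-fold. The share of coding calls that were higher was 54.7% relative to the median and 20.2% as deposited. Among the 10 genes, no called change reversed its direction under these alternatives. For most settings it could not have done so. The filters, the 1.5-fold limit and the summed records left the values of these genes as they were. Recentring moved every value by the same median of -0.60, which is less than the 2-fold limit. The read depth is unknown; BTC at 6 steps and ERBB3 at 3 carried the flag for too few fragments. Without replicate values no difference here can be set against the spread between cultures.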
